A study of Mus musculus with 4 samples.

Results

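Cited1, Cited2, Cited4, Ep300 and Crebbp encode CITED transcriptional cofactors and the acetyltransferases p300 and CBP that they bind. They were taken by symbol from the gene count table of B16F10 cells with and without knockdown of Lmna, and are 5 of its 24421 gene symbols. The set was chosen on the higher Cited1 counts of shLmna against shControl, so the Cited1 values are given as a description with no test. The others were included for their family or role. Cited1, Cited2 and Ep300 passed the filter on low counts that left 9150 tested genes, whereas Cited4 and Crebbp fell below it.

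B16F10 is a mouse melanoma line of C57BL/6 origin, and all 4 libraries were made from cells that had been transduced with lentivirus and selected with puromycin. The shControl libraries (n = 2) came from cells with a control vector, listed in the study's resources as empty, and the shLmna libraries (n = 2) from cells with a hairpin that targets Lmna, which encodes the nuclear lamina proteins lamin A and lamin C. A general effect of carrying a hairpin and the loss of lamin A/C therefore cannot be told apart. Separate cultures within a group are not stated, so the p-values measure spread between libraries, which may be technical. RNA was profiled by bulk MARS-seq, which counts the 3′ ends of polyadenylated transcripts.

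CBP and p300 are closely related proteins that acetylate histones and other proteins and serve as docking surfaces for many transcription factors. CITED proteins do not bind DNA themselves. They bind a CBP/p300 domain through an acidic C-terminal region and either bring the acetyltransferase to DNA-bound partners, such as TFAP2 and SMAD factors, or, as for CITED2 and HIF1A, compete with another factor for the same surface. Cited1 was first described as a melanocyte-specific gene, and in melanocytes CBP/p300 also work with MITF, the master regulator of pigment genes.

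Total counts were 2494880 to 3808843 per library, at which 3 counts equal 0.803 to 1.19 CPM (counts scaled to a common library size). Lmna, the targeted gene, was at 797 ± 111 CPM (SD, n = 2) in shControl and 130.8 ± 0.0955 CPM (SD, n = 2) in shLmna, with an edgeR adjusted p of 7.93e-06. Of the 17 melanocyte markers, 14 were tested, and their summed level was 21844 to 22681 CPM in shControl and 22969 to 26636 CPM in shLmna. Tyr, which encodes tyrosinase, had 1 to 7 counts per library, and Ednrb had none. Of the markers of other cell types, the 5 fibroblast genes summed to 7.12 to 7.23 CPM in shControl and 2.37 to 4.90 CPM in shLmna, with Dcn and Lum at 0. The 5 immune genes summed to 14.7 to 18.0 and 11.5 to 13.4 CPM, most of it from Cd68, with Ptprc, Cd3e and Itgam at 0. The 5 epithelial genes summed to 2.95 to 5.89 and 0.396 to 1.63 CPM, with Epcam and Krt14 at 0. The 5 endothelial genes summed to 0.619 to 1.34 and 0 to 0.272 CPM, with Cdh5, Kdr and Emcn at 0. These small sums were lower in shLmna for all 4 lists, and their part in the results was not tested.

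Cited1 was about 3 times as abundant in the shLmna libraries as in the shControl libraries. The gene lies on the minus strand of the X chromosome at chrX:102247381-102252181 (GRCm38), and its last exon spans bases 102247404 to 102248008. The shControl libraries held 166 and 185 raw counts, and the shLmna libraries 431 and 554. Scaled by TMM, this was 51.4 and 49.5 CPM in shControl and 170.5 and 150.9 CPM in shLmna. Both shLmna libraries were above both shControl libraries. Such a separation was common, as the groups did not overlap for 60.1% of all tested genes. The mean was 50.5 ± 1.33 CPM (SD, n = 2) in shControl and 160.7 ± 13.8 CPM (SD, n = 2) in shLmna, a 3.18-fold difference. The fitted log2 fold change was 1.67 (SE 0.136), which ranked 75 from the highest among the 9150 tested genes. In bulk RNA, a change in the number of cells that express a gene and a change in RNA per cell cannot be told apart.

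Cited2 moved the other way, but the shLmna libraries differed widely. The gene encodes a CITED protein that is induced by many stimuli and competes with HIF1A for p300. It lies on the plus strand at chr10:17723218-17725674 (GRCm38), with its last exon at bases 17723938 to 17725674. There were 446 and 526 raw counts in the shControl libraries, and 44 and 284 in the shLmna libraries, or 138.1 and 140.8 CPM against 17.4 and 77.4 CPM. The shControl libraries nearly coincided, whereas shLmna 1 held far less Cited2 than shLmna 2, and both lay below shControl. Means were 139.5 ± 1.90 CPM (SD, n = 2) in shControl and 47.4 ± 42.4 CPM (SD, n = 2) in shLmna. A log2 fold change of -1.49 (SE 0.421) was fitted, at an adjusted p of 0.0406 by edgeR over all tested genes.

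That call rested on the method and its size on single libraries. With DESeq2 the Cited2 log2 fold change was -1.55, with an adjusted p of 0.462, the highest of all alternatives. The lowest, 5.15e-19, came from edgeR with no filter on low counts. The SE in that fit was 0.159, against 0.421 in the main fit to the same libraries. Without shLmna 1 the log2 fold change was -0.85 (edgeR adjusted p of 0.0285), and without shLmna 2 it was -2.99 (edgeR adjusted p of 0.00133). The shLmna libraries differed in Cited2 by 2.11 in log2 CPM, and 13 of the 5788 tested genes with a mean of at least 20 CPM, Cited2 among them, differed by that much or more between them. The corresponding difference was 0.17 for Cited1 and 0.41 for Ep300.

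Cited4, the remaining CITED gene of the set, was close to undetected. It is a single-exon gene on the plus strand at chr4:120666572-120667820 (GRCm38). The shControl libraries held 3 and 4 raw counts, and the shLmna libraries 1 and 1. These 9 counts put it below the filter, and the ratio of the count rates of shLmna and shControl was 0.328 (95% exact interval 0.0333 to 1.72, counting error only). A difference was not detectable at this depth.

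**Figure D1:**
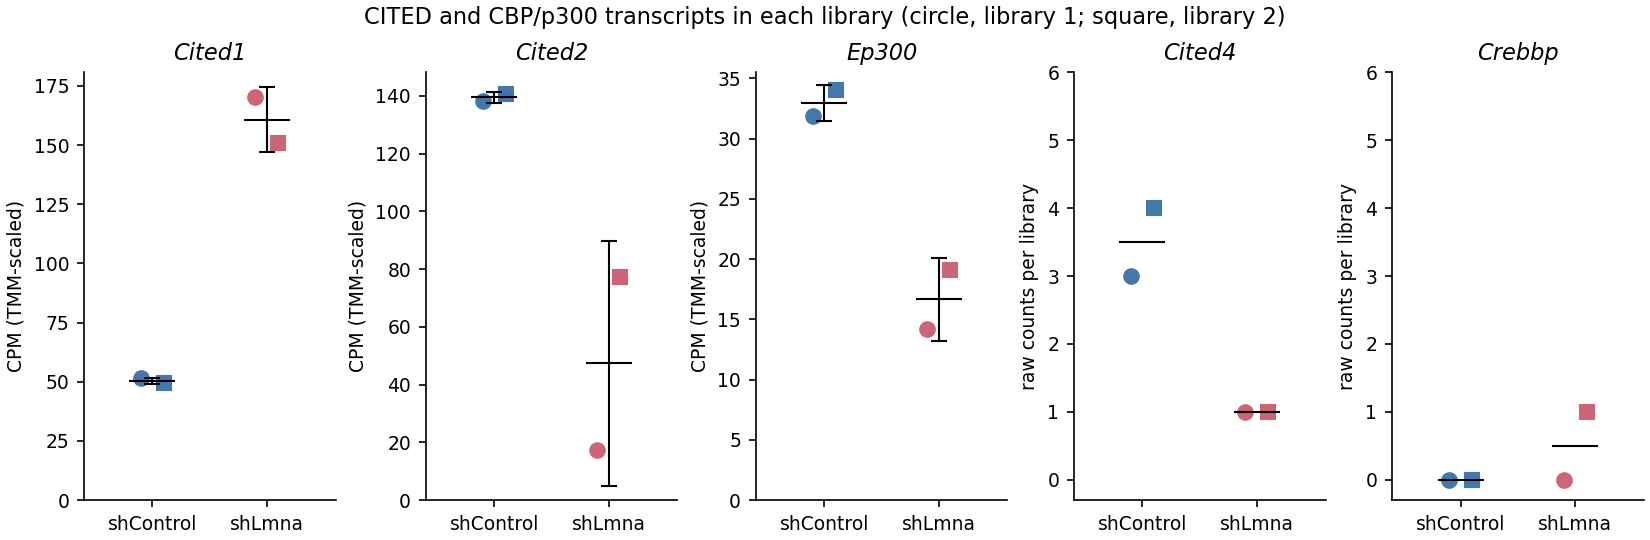
Level of each gene in the 4 libraries, as TMM-scaled CPM (Cited1, Cited2, Ep300) or raw counts (Cited4, Crebbp). Circles are library 1 and squares library 2 of each group, horizontal lines are group means and error bars are SD (n = 2). Cited1 is at 49.5 to 51.4 CPM in shControl and 150.9 to 170.5 CPM in shLmna, while Cited2 is at 17.4 CPM in shLmna 1 and 77.4 CPM in shLmna 2.

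The make-up of the CITED transcripts differed between the groups, while their sum differed less. Genes are counted only at annotated 3′ ends, so the shares below are shares of counts and are compared between libraries. Cited1 gave 27.0% (95% Wilson interval 23.6 to 30.6) and 25.9% (22.8 to 29.2) of all CITED counts in shControl 1 and 2. In shLmna 1 and 2 it gave 90.5% (87.6 to 92.9) and 66.0% (62.8 to 69.2), intervals that cover counting error only. The Cited1 share was thus higher in both shLmna libraries, and highest in shLmna 1, where Cited2 was lowest. The ratio of Cited1 to Cited2 counts was 0.372 and 0.352 in shControl, and 9.80 and 1.95 in shLmna. The summed CITED level was 190.5 and 191.4 CPM in shControl, and 188.3 and 228.6 CPM in shLmna. These shares include the Cited1 values that chose the set and are a description.

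Promoter windows of Cited1 and Cited2 are shown to describe their short motifs, which for Cited1 differ among its annotated starts. A part of these motifs in the changes was not tested. The 250 bases before the outermost RefSeq start of Cited1 (chrX:102252182-102252431, minus strand) and before the start of Cited2 (chr10:17722978-17723227, plus strand) are given 5′ to 3′ in GRCm38.p6. Capitals mark matches on either strand to the E-boxes CACGTG and CATGTG, bound by MITF and related factors, to the CREB element TGACGTCA or its core TGACG, to the HIF core ACGTG, which the first E-box contains, or to the TATA-box letters TATAAA.
Cited1: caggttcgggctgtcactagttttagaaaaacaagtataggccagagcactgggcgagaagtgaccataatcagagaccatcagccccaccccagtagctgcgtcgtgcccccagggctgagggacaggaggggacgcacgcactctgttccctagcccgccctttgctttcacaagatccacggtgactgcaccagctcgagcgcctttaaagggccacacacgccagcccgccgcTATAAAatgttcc
Cited2: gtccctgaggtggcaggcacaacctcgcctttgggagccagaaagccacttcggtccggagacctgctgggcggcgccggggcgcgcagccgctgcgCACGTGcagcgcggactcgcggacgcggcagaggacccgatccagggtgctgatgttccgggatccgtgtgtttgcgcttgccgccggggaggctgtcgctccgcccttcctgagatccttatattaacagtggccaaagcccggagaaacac
The Cited1 sequence holds TATAAA, which begins 13 bases before the start and occurs in 12.37% of 32851 promoter windows of this length. The Cited2 sequence holds CACGTG, which begins 153 bases before the start and occurs in 6.02% of these windows. CATGTG occurs in 12.25% of the windows, TGACGTCA in 1.55%, TGACG in 17.77% and ACGTG in 16.57%. Cited1 has other annotated starts inside the gene. The window of one of them holds the second E-box, the HIF core and the TATA-box letters, and that of another holds the core of the CREB element. The Cited4 window holds TATAAA, and those of Ep300 and Crebbp hold none of these letters. A match is a description of the sequence and not a binding site.

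Ep300, which encodes p300, was lower in shLmna. The gene lies on the plus strand at chr15:81585351-81652077 (GRCm38), and its last exon spans bases 81648802 to 81652077. There were 103 and 127 raw counts in the shControl libraries, and 36 and 70 in the shLmna libraries, the latter 14.2 and 19.1 CPM. Both shLmna libraries were below both shControl libraries. Means were 33.0 ± 1.48 CPM (SD, n = 2) in shControl and 16.7 ± 3.42 CPM (SD, n = 2) in shLmna. A log2 fold change of -0.97 (SE 0.225) was fitted, at an adjusted p of 0.0185. by edgeR It thus passed the adjusted test but not the limit of 1 on the size of the log2 fold change that the study used for its calls.

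The Ep300 call was lost under several alternatives. With DESeq2 its adjusted p was 0.115 at the same log2 fold change of -0.97, and without shLmna 1 or shLmna 2 the log2 fold change was -0.78 or -1.20 (edgeR adjusted p of 0.139 and 0.0568). After a correction for GC content it was -0.31, with an edgeR adjusted p of 0.398.

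Crebbp, which encodes CBP, had 0 counts in both shControl libraries and 0 and 1 in shLmna. The gene lies on the minus strand at chr16:4081328-4213997 (GRCm38), and its last exon spans bases 4081328 to 4086198. This is 1 count of 13223522 in all 4 libraries, and 0 counts in shControl allow up to 0.424 CPM over both libraries, without scaling. The counts come from annotated 3′ ends alone, and transcripts that end elsewhere would not be counted. No level of CBP can therefore be read from these counts. Creb1, the founding CBP partner, was as sparse, with 1 count in shControl 1 and 1 in shLmna 2.

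Among the tested members, Cited2 and Ep300 thus passed the edgeR adjusted test in the lower direction, where 9.74% of all tested genes did. In the higher direction 5.48% of all tested genes passed, and no test is given for Cited1. The libraries of the groups did not overlap for Cited1, Cited2 and Ep300, nor for 60.1% of all tested genes. With the limits on fold size and mean count added, Cited2 was called lower, as were 5.88% of all tested genes, and 1.76% of all tested genes were called higher. This contrast chose the set, and nothing is read from these counts.

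Base composition of the counted 3′ end differed among the members. Across GC classes of the tested genes, the median log2 fold change was lowest in the class of least GC. It was near 0 in the classes from 34% to 58% GC. A part of base composition in the changes of the members was not tested. GC content of the last 1000 transcript bases was 61.7% in Cited1, 37.0% in Cited2, 30.9% in Ep300, 67.4% in Cited4 and 45.4% in Crebbp. Among the 317 tested genes of at most 34% GC, the class of Ep300, 49.8% were lower in shLmna by the adjusted test and 5.36% higher, with a median log2 fold change of -1.20. Ep300 at -0.97 lay close to that median. Among the 2197 genes from 34% to 42% GC, the class of Cited2, 14.8% were lower and 9.01% higher, with a median of 0.01. Among the 507 genes above 58% GC, the class of Cited1, 11.4% were lower and 2.37% (12 genes) were higher, with a median of -0.17. After correction for GC content the log2 fold change was 1.84 for Cited1 and -1.45 for Cited2 (edgeR adjusted p of 0.0474).

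**Figure D2:**
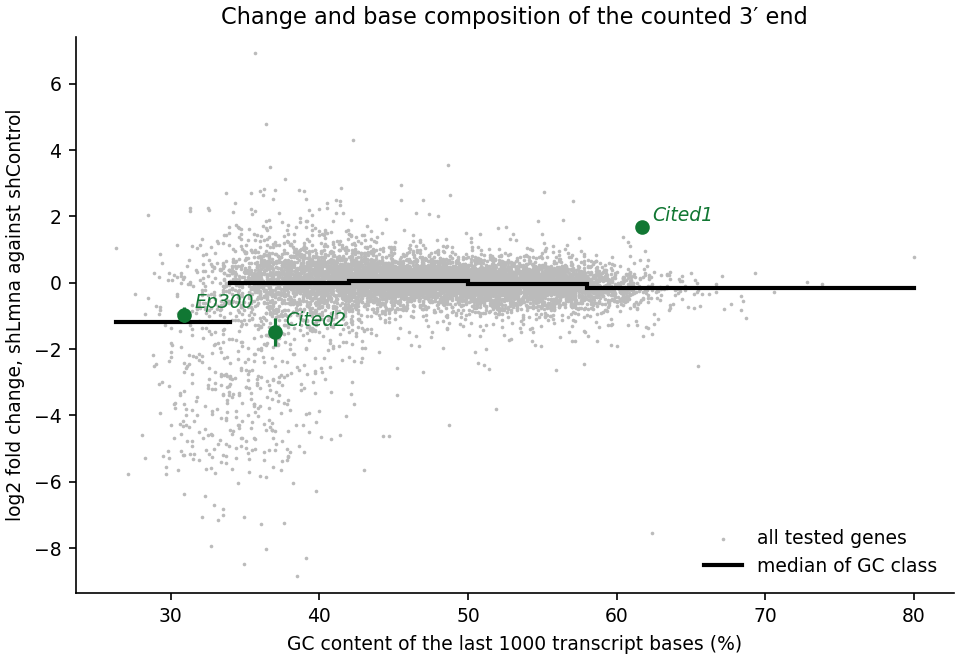
Log2 fold change of shLmna against shControl (vertical axis) against the GC content of the last 1000 transcript bases (horizontal axis, %) for tested genes with a known 3′ end (grey points). Green points are Cited1, Cited2 and Ep300 with SE, and black lines are medians of GC classes. The median is -1.20 in the class of Ep300 and -0.17 in the class of Cited1.

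To place these genes among their partners, 8 lists of 83 genes were examined, which hold DNA-binding partners, other coactivators, enzymes that add or remove acetyl groups, readers of acetyl-lysine, and the HIF arm. Of the 65 tested genes, 8 were lower in shLmna by the edgeR adjusted test, or 12.3%, against 9.74% of all tested genes. None was higher by edgeR, against 5.48% of all tested genes. At an unadjusted edgeR p under 0.05, 12 were lower and 4 higher, a limit at which all tested genes were not counted. DESeq2 called 7 of the list genes lower and 0 higher. Over all genes it called 589 lower and 218 higher. DESeq2 was run without the filter on low counts, so these are not shares of the 9150 tested genes. With 1 library left out these counts moved, and so did those over all tested genes. The median log2 fold change over the 65 genes was -0.05, against -0.00107 for all tested genes. Of the 8 lower genes, 6 had a 3′ end of at most 42% GC. Of the 891 lower genes among all tested, 158 were at most 34% GC and 326 were from 34% to 42%.

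Among the DNA-binding partners of CITED proteins, 4 of 9 genes were tested, and Tfap2a was lower. Tfap2a encodes AP-2α, a neural crest and melanocyte factor that CITED proteins coactivate. The shControl libraries held 334 and 361 raw counts, and the shLmna libraries 85 and 134, and the groups were well apart. Its level was 100.1 ± 4.81 CPM (SD, n = 2) in shControl and 35.1 ± 2.04 CPM (SD, n = 2) in shLmna, a log2 fold change of -1.51 (SE 0.147, adjusted p of 0.00014 in edgeR). Tfap2a passed the adjusted test under all 11 alternatives. Smad2, Smad3 and Smad4, which carry TGF-β signals, had log2 fold changes of 0.58, -0.04 and -0.16 and did not pass the test. Tfap2b, Tfap2c, Tfap2e and Lhx2 had 0 counts in every library.

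In the CREB family and its CRTC coactivators, 5 of 6 genes were tested, and Atf1 was lower. Atf1 encodes a factor that binds the CREB element and recruits CBP/p300. There were 117 and 216 raw counts in the shControl libraries, and 19 and 62 in the shLmna libraries, so that each shLmna library was below both shControl libraries. The level was 47.0 ± 15.3 CPM (SD, n = 2) in shControl and 12.2 ± 6.63 CPM (SD, n = 2) in shLmna, a log2 fold change of -1.89 (SE 0.343, adjusted p of 0.00564 in edgeR). Without shLmna 1 it was -1.48, and without shLmna 2 it was -2.63. Crem, Crtc1, Crtc2 and Crtc3 had log2 fold changes from -0.54 to -0.09, and none of the 4 passed the test.

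Of the 15 other activators that bind CBP/p300, 13 were tested, and Ctnnb1 was lower. Ctnnb1 encodes β-catenin, the transcriptional effector of Wnt signals. Its log2 fold change was -0.66 (SE 0.111), with an edgeR adjusted p of 0.00369. That call was lost without shLmna 1 (adjusted p of 0.0793) and without shLmna 2 (adjusted p of 0.0557). Mitf was at 137 and 133 CPM in shControl and at 99.7 and 109 CPM in shLmna, a log2 fold change of -0.37 with an edgeR adjusted p of 0.0804. Trp53, Rela, Jun and Fos had log2 fold changes of -0.19, -0.30, -0.20 and -0.12 and did not pass the test.

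The p160 coactivators and Carm1 made a list of 4 genes, of which 3 were tested, and Ncoa2 was lower. Ncoa2 encodes a nuclear receptor coactivator that binds CBP/p300. The shControl libraries held 26 and 39 raw counts, and the shLmna libraries 2 and 0, at or under the floor of 3 counts per library. The level in shLmna was at least 9.23-fold lower, with an edgeR adjusted p of 0.00227. The fitted log2 fold change, which depends on the prior count, was -8.04 without shLmna 1 and -3.47 without shLmna 2. Ncoa1 and Carm1 had log2 fold changes of 0.18 and 0.14 and did not pass the test.

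Enzymes and readers of acetyl-lysine gave 1 gene that passed. Of 18 lysine deacetylases, 16 were tested, and Hdac7, a class II deacetylase, was lower by -1.23 in log2 (SE 0.262, adjusted p of 0.0121 in edgeR). Hdac7 was not called with DESeq2 (adjusted p of 0.147), nor with edgeR without shLmna 1 (0.0882) or without shLmna 2 (0.0709). Of the 9 other lysine acetyltransferases, 7 were tested, with log2 fold changes from -0.30 to 0.71. By edgeR 0 of these passed the adjusted test, 1 was lower and 1 higher at an unadjusted p under 0.05, and DESeq2 called 0. Of the BET readers, 3 of 4 were tested, with log2 fold changes from -0.11 to 0.22, and 0 passed with edgeR, at an unadjusted p under 0.05 or with DESeq2.

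**Figure D3:**
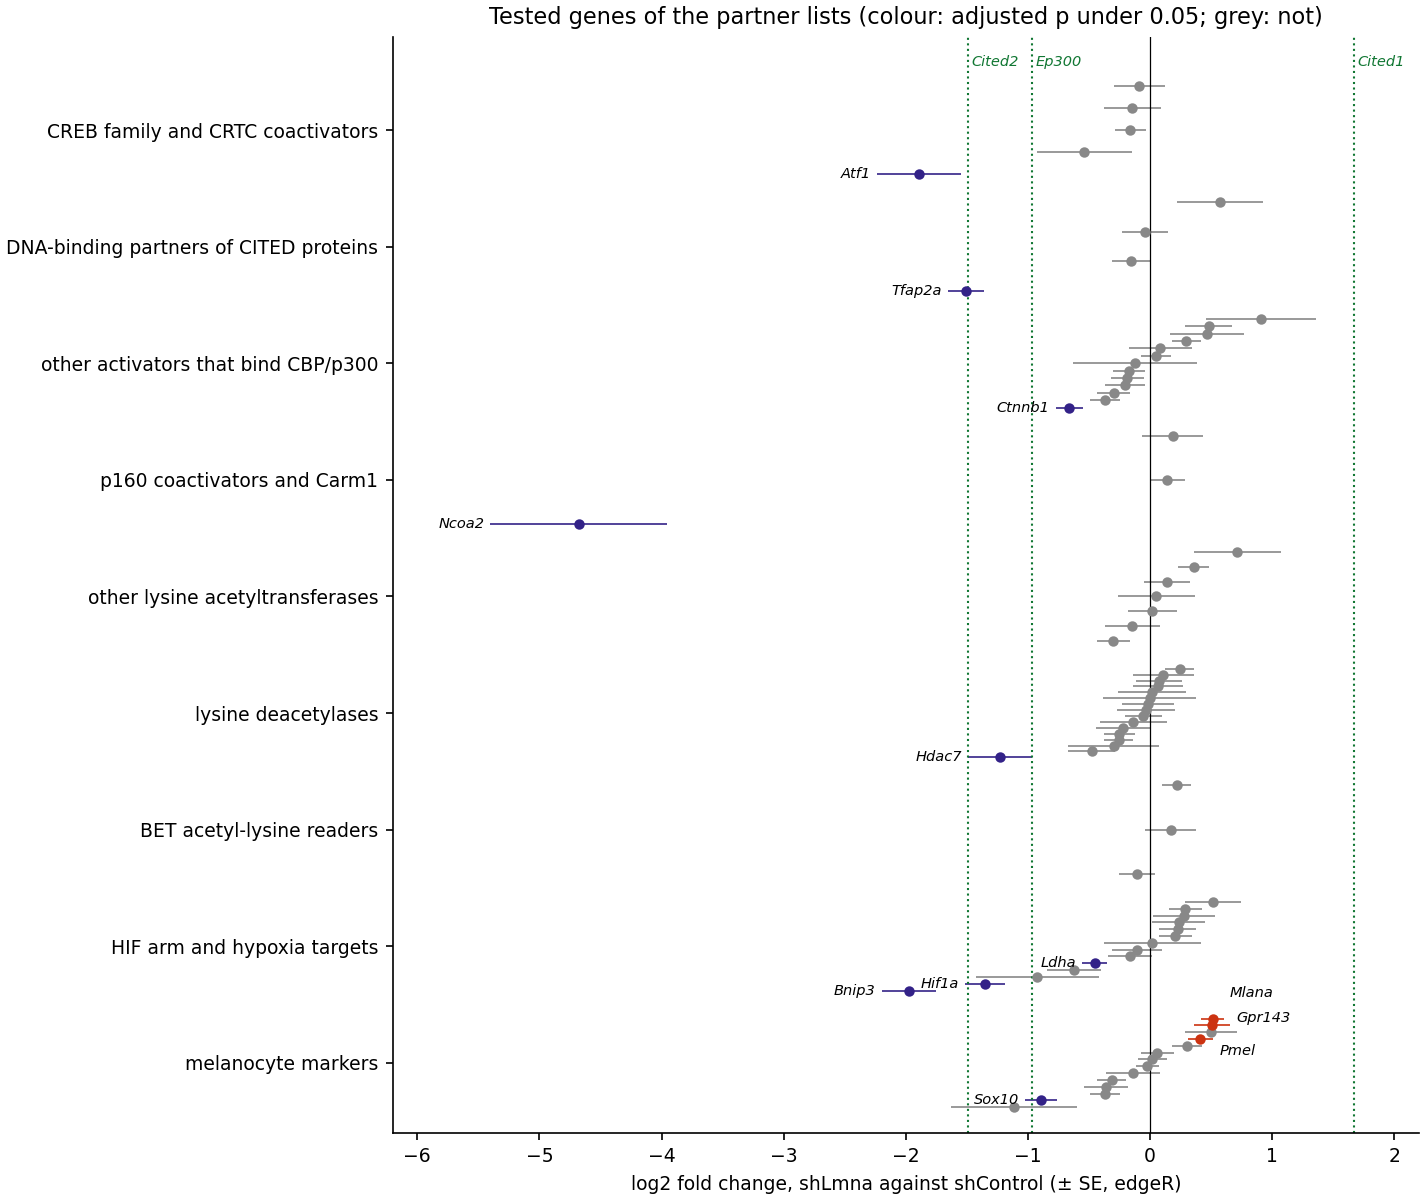
Log2 fold change with SE (horizontal axis) of the tested genes of the 8 partner lists and the melanocyte markers (rows). Blue marks genes lower and red genes higher in shLmna at an edgeR adjusted p under 0.05, grey the others, and dotted lines the values of Cited2 (-1.49), Ep300 (-0.97) and Cited1 (1.67). The 8 partner genes past the test all lie below 0.

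The HIF arm, in which CITED2 and CITED4 compete for p300, held 14 tested genes of 18. By the edgeR adjusted test 3 were lower, as were 9.74% of all tested genes. Hif1a, the oxygen-regulated subunit, had 219 and 273 raw counts in the shControl libraries and 66 and 106 in the shLmna libraries. The log2 fold change was -1.35 (SE 0.163), with an edgeR adjusted p of 0.000514. After GC correction it was -0.83 (edgeR adjusted p of 0.0100), the 3′ end of Hif1a being 32.1% GC. Bnip3, a mitophagy gene induced by HIF, was at 40.6 and 47.7 CPM in shControl and at 10.3 and 12.0 CPM in shLmna, a log2 fold change of -1.97 (SE 0.222, adjusted p of 0.000356 in edgeR). Ldha, which encodes lactate dehydrogenase A, was lower by -0.45 in log2 (edgeR adjusted p of 0.0155), a call lost without shLmna 1 (0.11) or shLmna 2 (0.178). The other HIF targets did not move together. Vegfa was at -0.62, and Slc2a1, Pgk1 and Ndrg1 were at 0.29, 0.24 and 0.23 in log2 fold change, all short of the test.

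Cited1 is expressed in the melanocyte lineage, and the lineage markers were therefore set beside it. Of the 14 tested, Mlana, Gpr143 and Pmel were higher, by 0.51, 0.51 and 0.41 in log2 (edgeR adjusted p of 0.0051, 0.0448 and 0.0258), against 1.67 for Cited1. These encode melanosome proteins. Of all tested genes, 5.48% were higher and 9.74% lower. Sox10, a lineage transcription factor, was lower by -0.89 (edgeR adjusted p of 0.00161) under all 11 alternatives. Without shLmna 2 the adjusted p was 0.0783 for Mlana, 0.273 for Gpr143 and 0.199 for Pmel. Without shLmna 1 it was 0.0482, 0.117 and 0.105, and without shControl 2 it was 0.00208, 0.108 and 0.107. Gpr143 was also not called with DESeq2 (adjusted p of 0.241) or with GC correction in edgeR (0.0693), nor Pmel with the recovered counts in edgeR (0.059), so that DESeq2 called 2 markers higher. The enzymes Dct and Tyrp1 had log2 fold changes of -0.02 and -0.14 and did not pass the test. Tyrp1 differed between the shLmna libraries, at 2384 CPM in shLmna 1 and 4451 CPM in shLmna 2. It was at 3843 and 3676 CPM in shControl 1 and 2.

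The genes with the profile most like Cited1 were sought by the Euclidean distance between log2 CPM values centred on each gene's mean over the 4 libraries. The nearest 5 were Lrrcc1, D630003M21Rik, Tigd2, Dctn4 and Cdk7, at distances of 0.11 to 0.23. All were much less abundant at their counted 3′ ends, with shControl means of 2.02 to 4.02 CPM and shLmna means of 8.51 to 13.1 CPM. The nearest 5 to Cited2 were 1110059E24Rik, Qpct, 4930453N24Rik, Ddx21 and Asah1, at distances of 0.20 to 0.33. Each was lower in shLmna 1 than in shLmna 2, as Cited2 was. Ddx21, for example, was at 98.8 and 78.2 CPM in shControl and at 11.1 and 47.1 CPM in shLmna 1 and 2.

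Of the 5 nearest tested genes on each side of Cited1 on the X chromosome, 8 did not pass the adjusted test and 2 did, which 15.2% of all tested genes did. Rlim, which encodes a ubiquitin ligase, was higher, from 90 and 125 counts in the shControl libraries to 251 and 382 in the shLmna libraries (log2 fold change 1.72, SE 0.155, edgeR adjusted p of 8.35e-05). Ogt, which encodes the O-GlcNAc transferase, had 38 and 109 counts in the shControl libraries against 1 in each shLmna library, and was at least 20.4-fold lower with an edgeR adjusted p of 0.000565. The closest tested neighbours, Rps4x and Hdac8, had log2 fold changes of -0.16 and 0.02. Over the X chromosome, 40 of 222 tested genes were lower (18.0%, against 9.74% of all tested genes) and 14 higher (6.3%, against 5.48%).

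The settings plot sets the 3 tested members side by side under every alternative. The Cited1 log2 fold change lay between 1.59 and 1.77 with each library left out in turn. The batch-corrected log2 values gave smaller changes for all 3 genes, 0.73 for Cited1, -0.72 for Cited2 and -0.26 for Ep300.

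**Figure D4:**
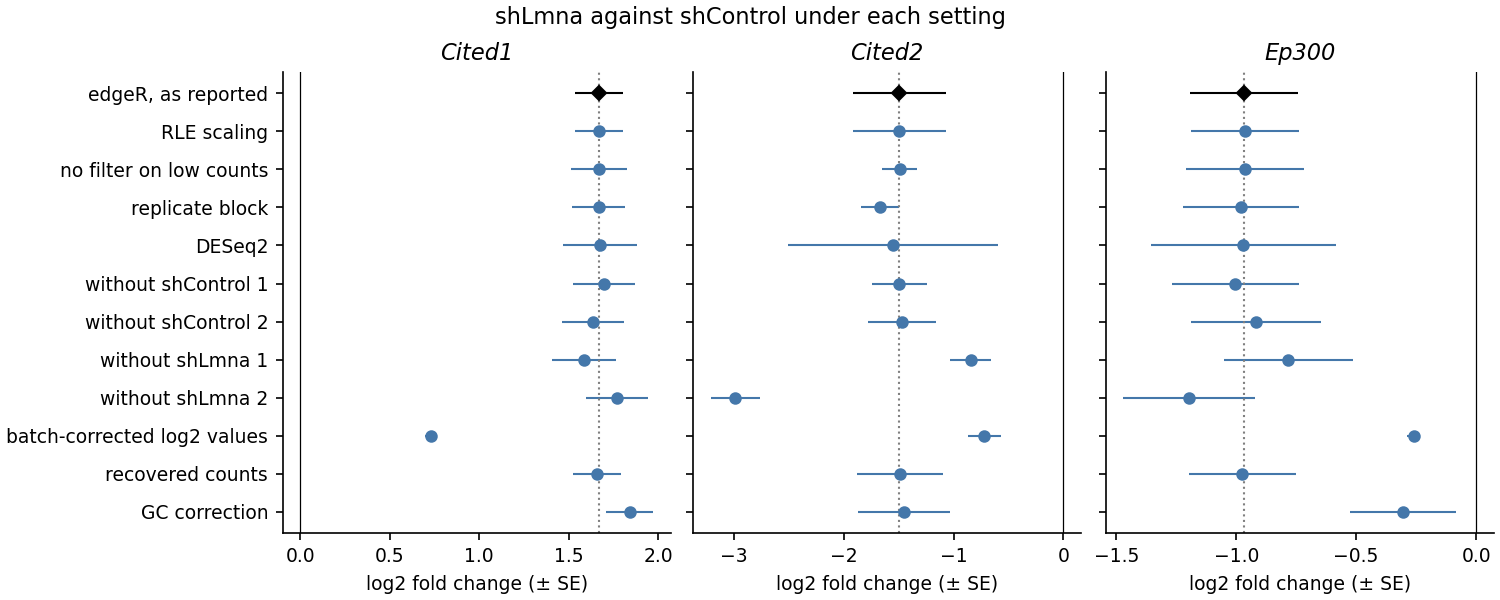
Log2 fold change of shLmna against shControl with SE (horizontal axes, separate for each gene) for Cited1, Cited2 and Ep300 under the reported edgeR fit (black diamond, dotted line) and 11 alternatives (blue). The sign is the same under every alternative for each gene, which for Cited1, whose rise chose the set, is a description. Cited2 runs from -2.99 without shLmna 2 to -0.72 in the batch-corrected values, and Ep300 is at -0.31 after GC correction.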

How the data were processed

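Bulk MARS-seq libraries were available for shControl and shLmna B16F10 cells (n = 2 each), grouped and numbered by their titles. According to the study's methods and processing notes, reads were trimmed with Cutadapt, aligned to mm10 with STAR 2.4.2a and counted by HTSeq over RefSeq 3′ ends (1000 bases, plus 100 bases downstream), with duplicate molecular identifiers marked. The authors deposited raw counts per gene symbol, which were used for every main test. Whether duplicates had been removed from that table is not stated, and its counts do not separate alternative 3′ ends. The authors also deposited a signal per library (counts divided by a size factor) and log2 values corrected for unnamed batches. Their deposited p-values for shControl against shLmna were not used. Whole reads were recovered from the signal for 100% of values (within 0.1 of a whole number of reads), and the counts exceeded them by a factor of 1.08 to 1.09. There were 0 other columns of per-sample values.

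Counts were tested in edgeR 4.0.16 with its quasi-likelihood method (R 4.3.3; TMM, default filterByExpr, group as the only term, two-sided, Benjamini-Hochberg over 9150 genes). The study's own limits, adjusted p under 0.05, log2 fold change over 1 in size and mean normalized count over 5, were used where a call needs them. SE values came from the F statistic, and the biological coefficient of variation was 0.126. Replicates differed by more than sampling noise (chi-square per degree of freedom 6.96 in shControl and 3.91 in shLmna) and were counted separately. Alternatives were RLE scaling, no filter, a replicate block, DESeq2 1.42.0, each library left out, limma 3.58.1 on the batch-corrected values, recovered counts, and a loess correction (span 0.3) for GC content of the last 1000 transcript bases, known for 96.3% of tested genes from GENCODE. Promoters are from RefSeq (GRCm38.p6) and matched all 5 genes.

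The genes and lists were chosen with earlier results of these data known. Named genes are the 5 members, Lmna, up to 4 genes per list past the adjusted test, the 5 nearest profiles to Cited1 and Cited2, and the neighbours of Cited1 past the test. Other genes named with values were chosen after their values were seen.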

Additional observations from a re-analysis of the deposited data

How the results depend on the processing

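The sign of the Cited1, Cited2 and Ep300 changes was the same under all 11 alternatives, which reuse the same 4 libraries. For Cited1, whose rise chose the set, the sign is a description. Cited1 moved from 1.67 to 0.73 in the batch-corrected log2 values and to 1.84 with GC correction. Cited2 had an adjusted p of 0.462 with DESeq2 at -1.55, and ranged from -2.99 to -0.85 with 1 library left out. Ep300 lost its call with DESeq2 (-0.97) and with GC correction (-0.31), and ranged from -1.20 to -0.78 with 1 library left out. Genes past the adjusted test numbered 891 lower and 501 higher, 589 and 218 with DESeq2, 1988 and 1793 in the batch-corrected values, and 414 to 1329 lower and 89 to 775 higher with 1 library left out. The partner lists held 8 lower and 0 higher, 17 and 10 in the batch-corrected values, and 5 to 10 lower and 0 to 2 higher with 1 library left out. With the replicate block, 852 genes and 1 list member were higher, the Cited2 and Ep300 log2 fold changes were -1.67 and -0.98, and no call on the members changed. Same-numbered libraries did not deviate together (correlation of deviations 0.0129 across 9150 genes). Whether they were prepared in pairs is not stated, and a correlation over all genes cannot decide it. Leaving out 1 library leaves a lone sample that is assumed to vary like the others. The causes of these changes were not tested. Cited4 and Crebbp gave no value in any fit that uses the filter, and without the filter their edgeR adjusted p were 0.61 and 0.728. Depth limits both to counts, and no group had enough libraries for a check of outlying samples.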

Other observations

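Several other enzymes of acetyl-lysine turnover fell below the filter on low counts and are given as counts. Sirt1, an NAD-dependent deacetylase, had 8 and 13 counts in the shControl libraries and none in shLmna. Kat2b, which encodes the p300-associated acetyltransferase PCAF, had 1 and 42 counts in the shControl libraries and none in shLmna, so that nearly all of its counts came from shControl 2. Kat7 had 1 to 4 counts in every library. Foxo3, a CBP/p300 partner, had 1 count in shControl 2 and 0 elsewhere. Brdt, the testis-enriched BET gene, had 2 to 6 counts in each library.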
